A study of Mus musculus with 4 samples.

Results

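The 7 genes described here encode or accompany the small basic proteins that pack the DNA of sperm. They are the protamine genes Prm1 and Prm2, their neighbour Prm3, the transition protein genes Tnp1 and Tnp2, and the spermatid linker histone genes H1fnt and Hils1. They were chosen by symbol, and all 7 were found among the 55450 genes of the deposited matrices. The data were droplet single-cell transcriptomes of dissociated mouse testis made with 10x Chromium 3′ chemistry, version 3. The series has 4 libraries, of which 2 carry the treatment label HFD (high-fat diet) and 2 the label ND, the comparison group. The strain, age, feeding time and composition of the diets are not given in the sources used here, nor is it stated that each library came from 1 mouse or 1 testis. The p-values below therefore measure the spread between these libraries, which may be technical.

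When a round spermatid elongates, most of its histones leave the chromatin. Transition proteins take their place for a short time, and protamines then pack the DNA into the dense sperm nucleus. The mRNAs of these proteins are made early and stored without being translated until the nucleus condenses, because transcription stops during elongation. Linker histones of the spermatid, such as those made from H1fnt and Hils1, act around the same passage.

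A group of 4 of the genes lies together. Tnp2, Prm3, Prm2 and Prm1 are on the minus strand of chromosome 16 between 10787936 and 10805839 (GRCm38, GENCODE M21), a span of 17904 bases. Tnp1 is on chromosome 1 (73015074 to 73015909, minus strand) and overlaps 1700027A15Rik on the other strand. H1fnt, named H1f7 in RefSeq, is on chromosome 15 (98255986 to 98257293, minus strand). Hils1 is on chromosome 11 (94967593 to 94968456, plus strand) within the span of Sgca, which runs the other way. The gene model of Prm1 (10796326 to 10805839) also overlaps Gm10343 and Gm46563 on the other strand. Whether the authors' counting used the strand is not given in the sources used here, so reads of these overlapping pairs could have been shared.

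The 120 bases before the RefSeq start (GRCm38.p6) of 5 of the genes are printed because each holds the string TATAA near its start or the string TGAGGTC, and Prm1 holds both. Each line is written 5′ to 3′ on the strand of the gene, and capitals mark a match on either strand.
Prm1, chr16:10796824-10796943, minus strand: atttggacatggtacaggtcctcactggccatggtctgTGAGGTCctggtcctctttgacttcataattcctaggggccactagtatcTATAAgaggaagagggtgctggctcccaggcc
Prm2, chr16:10792106-10792225, minus strand: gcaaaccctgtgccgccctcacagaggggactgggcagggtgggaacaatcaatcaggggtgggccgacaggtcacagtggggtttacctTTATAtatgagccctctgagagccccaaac
Tnp2, chr16:10788656-10788775, minus strand: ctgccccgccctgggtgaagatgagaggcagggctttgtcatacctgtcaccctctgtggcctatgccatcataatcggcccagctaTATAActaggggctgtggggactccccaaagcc
Prm3, chr16:10790915-10791034, minus strand: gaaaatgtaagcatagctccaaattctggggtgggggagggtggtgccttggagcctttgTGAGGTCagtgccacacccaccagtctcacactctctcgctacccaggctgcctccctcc
Hils1, chr11:94967473-94967592, plus strand: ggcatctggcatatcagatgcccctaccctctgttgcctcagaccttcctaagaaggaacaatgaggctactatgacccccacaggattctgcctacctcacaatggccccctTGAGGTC
The string TATAA stood at -32, -30 and -33 from the start in Prm1, Prm2 (on the other strand) and Tnp2, and in none of the other 4 promoters within 250 bases before to 50 bases after the start. Of 32851 mouse promoters of the same length, 24.9% held it. TGAGGTC was found at -82 in Prm1, -60 in Prm3 and -7 in Hils1, against 5.03% of all promoters. The string TGACGTCA, the full cyclic AMP response element to which factors of the CREM family bind, was in none of the 7 windows and in 1.79% of all promoters. Its shorter form TGACG was found once, at -180 in H1fnt, against 20.8% of all promoters. These are matches of letters and not evidence of binding.

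The labels state about 13000 recovered cells per channel. The matrices held 13561 to 15290 barcodes per library and 143748262 to 154221188 UMIs (unique molecular identifiers, each standing for 1 captured transcript), and 54916 cells were kept. Clusters were made without the 7 genes and named from marker genes. Of 31 clusters, 7 were round spermatid-like, 6 were elongating spermatid-like, and 7 holding 43.9% of the cells stayed unnamed. The 18194 spermatid-like cells were ordered by a stage index, the weighted share of UMIs from 18 early, 12 intermediate and 10 late spermatid genes, none of them a member, and cut into 10 bins of about equal cell number. Of these cells, 7381 lay within 0.02 of a bin edge. Between 42 and 65 cell barcodes were shared by any pair of libraries. Prm1 gave 1053217 to 1328739 UMIs per library, and H1fnt, the lowest of the 7, gave 52753 to 65591. Because the assay counts 1 end of each transcript, levels were not divided by gene length.

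All 7 mRNAs were abundant in spermatid-like cells and rose at different points of the index. Together they made up 16.7% ± 0.589 of all UMIs (SD, n = 4 libraries) in elongating spermatid-like cells, 2.83% ± 0.0722 in the round class and 2.75% of the whole testis, with a range over libraries of 2.40% to 3.06%. In elongating spermatid-like cells Prm1 stood at 58124.5 ± 2951 CPM (UMIs of a gene scaled to the same total in every library) and Prm2 at 52315 ± 1160 CPM. Tnp2 followed with 30267 ± 1181 CPM and Tnp1 with 20043.5 ± 1050 CPM. Prm3, Hils1 and H1fnt were an order below, at 2326 ± 40.8, 2072 ± 184 and 1837 ± 73.6 CPM. The ranges over libraries were 2276 to 2375 CPM for Prm3, 1892 to 2238 CPM for Hils1 and 1765 to 1918 CPM for H1fnt. The ranges of Hils1 and H1fnt overlapped, but within each of the 4 libraries Hils1 was the higher.

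Hils1, the linker histone-like gene, came first. Its mean level was 876 CPM in bin 1 and 3286 CPM in bin 6, where it was highest in every library. In bin 6 the HFD libraries had 3067 and 3206 CPM and the ND libraries 3457 and 3413 CPM. It had already passed 50% of its peak in bin 2, and it fell to 673 CPM in bin 9 and 333 CPM in bin 10, before any other member had fallen as far below its own peak. Prm3, whose product is an acidic protein of the cytoplasm and not a DNA-packing protamine, also rose early. It stood at 327 CPM in bin 1, 1136 in bin 2 and 1580 in bin 3, and its CPM then climbed slowly to 2796 in bin 8. In UMIs per cell, Prm3 was highest in bin 5, at 33.6, 29.5, 28.0 and 27.8 in HFD 1, HFD 2, ND 1 and ND 2. By bin 8 it had fallen to 19.9, 15.8, 17.1 and 17.9 UMIs per cell. Hils1 and H1fnt also had the most UMIs per cell in bin 5. H1fnt, a linker histone variant found at 1 pole of the spermatid nucleus, went from 64.5 CPM in bin 1 to 489 in bin 2, and was highest in bin 8 at 2248 CPM.

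The transition protein and protamine genes rose later and more steeply. Tnp2 reached 39010 CPM in bin 7, 83.0 times its level in bin 1, and was highest there in all 4 libraries. Tnp1 stood at 24516.5 CPM in bin 7 and 24720 in bin 8, and was highest in bin 8 in HFD 1 and in bin 7 in the other 3 libraries. Prm1 was highest in bin 8 in every library, at 74441 and 68401 CPM with HFD and 78131 and 76809 CPM with ND. Prm2 was last, with its highest mean of 71629 CPM in bin 9 and still 66216 CPM, or 92.4% of the peak, in bin 10. In bin 10 the other members had fallen further, Prm1 to 26.4% of its peak, Tnp1 to 20.3%, Tnp2 to 17.9%, Prm3 to 46.7%, H1fnt to 29.9% and Hils1 to 10.1%. By CPM, the highest bin of each member was the same without any single library, except that Tnp1 moved from bin 8 to bin 7 without HFD 1. In UMIs per cell, Prm1, Tnp1 and Tnp2 were highest in bin 6 in every library. Prm1 had 606 and 478 UMIs per cell there with HFD and 475 and 528 with ND. In bin 8 it had 530 and 398 with HFD and 466 and 490 with ND. The highest bin of Prm2 per cell differed between libraries. Over the libraries, median depth was 12730 to 14899 UMIs per cell in bin 5 and 5198 to 6281.5 in bin 8.

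**Figure D1:**
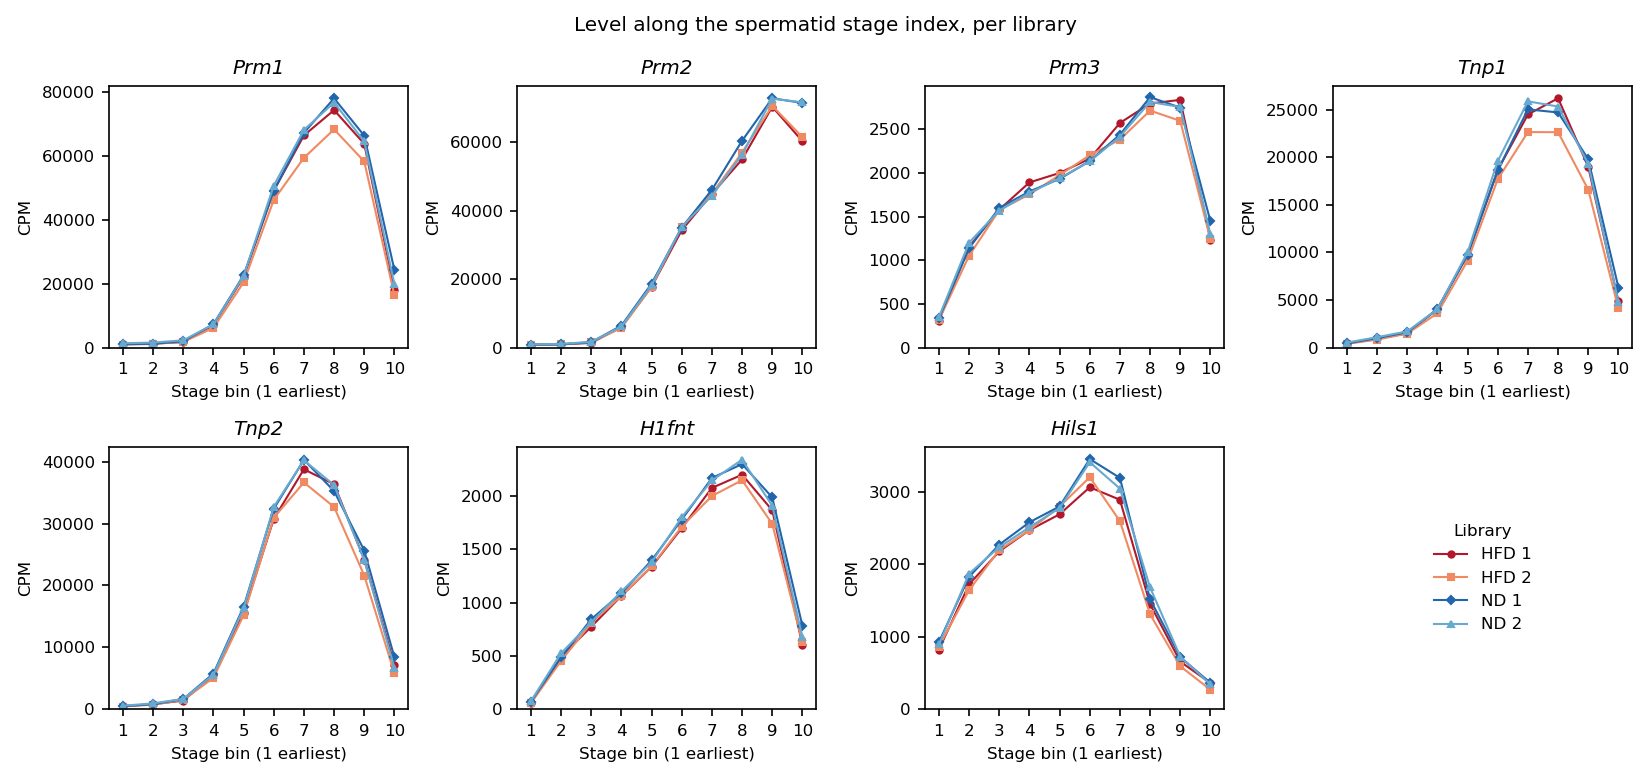
Level in CPM within the bin against the stage bin, from 1 (earliest) to 10 (latest), with 1 line for each of the 4 libraries and 1 panel per gene, each with its own scale from 0. Hils1 is highest in bin 6, Tnp2 in bin 7, Prm1 in bin 8 and Prm2 in bin 9, and the 4 libraries follow the same course.

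Free RNA in a cell suspension can be captured in any droplet, so levels in cell types that should lack these mRNAs serve as a gauge. Macrophage-like cells held a mean of 10.6 UMIs of Prm1 per cell, with 13.1, 9.39, 11.2 and 8.71 in HFD 1, HFD 2, ND 1 and ND 2. Lymphocyte-like cells held 9.35, Leydig-like cells 11.6 and fibroblast or peritubular-like cells 11.5 UMIs of Prm1 per cell. In these 4 somatic classes Prm2, Tnp1 and Tnp2 each stood in nearly 1 ratio to Prm1. For 100 UMIs of Prm1 there were 83.5 to 89.1 of Prm2, 32.2 to 35.1 of Tnp1 and 42.6 to 45.7 of Tnp2, against 86.7, 37.8 and 55.9 in the sum of the whole testis. Median depths were 2422 UMIs in macrophage-like, 2030 in lymphocyte-like and 5812.5 in Leydig-like cells. Members at these levels were read as background.

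In the earliest spermatid-like cells all 7 members had more UMIs per cell than in macrophage-like cells, which are shallower, so spermatocyte-like cells were taken as a further gauge. Bin 1 held 16.7 UMIs of Prm1 per cell, against 18.3 in pachytene or later spermatocyte-like cells, a ratio of 0.914 with a range over libraries of 0.891 to 0.979. The same ratio was 0.922 for Prm2 and 0.935 for Tnp2. For Tnp1 it was 1.05, with 6.77 against 6.43 UMIs per cell, and above 1 in all 4 libraries. Hils1 was 9.98 times the spermatocyte level in bin 1, 13.3 against 1.33 UMIs per cell, and between 8.25 and 11.8 times in the single libraries. Prm3 was 3.08 times that level and H1fnt 1.67 times. In bin 2 H1fnt had risen to 12.1 times and Prm3 to 10.2 times, while Tnp1 was at 2.18 times, Tnp2 at 1.53 times, Prm2 at 1.01 times and Prm1 at 1.03 times. In bin 3 Tnp1 was at 3.73 times, Tnp2 at 3.06 times, Prm1 at 1.63 times and Prm2 at 1.68 times. Median UMIs per cell in bins 1 to 3 ran from 10515 to 13641 over the libraries, and the pachytene-like cells, with a median of 24122, were deeper.

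**Figure D2:**
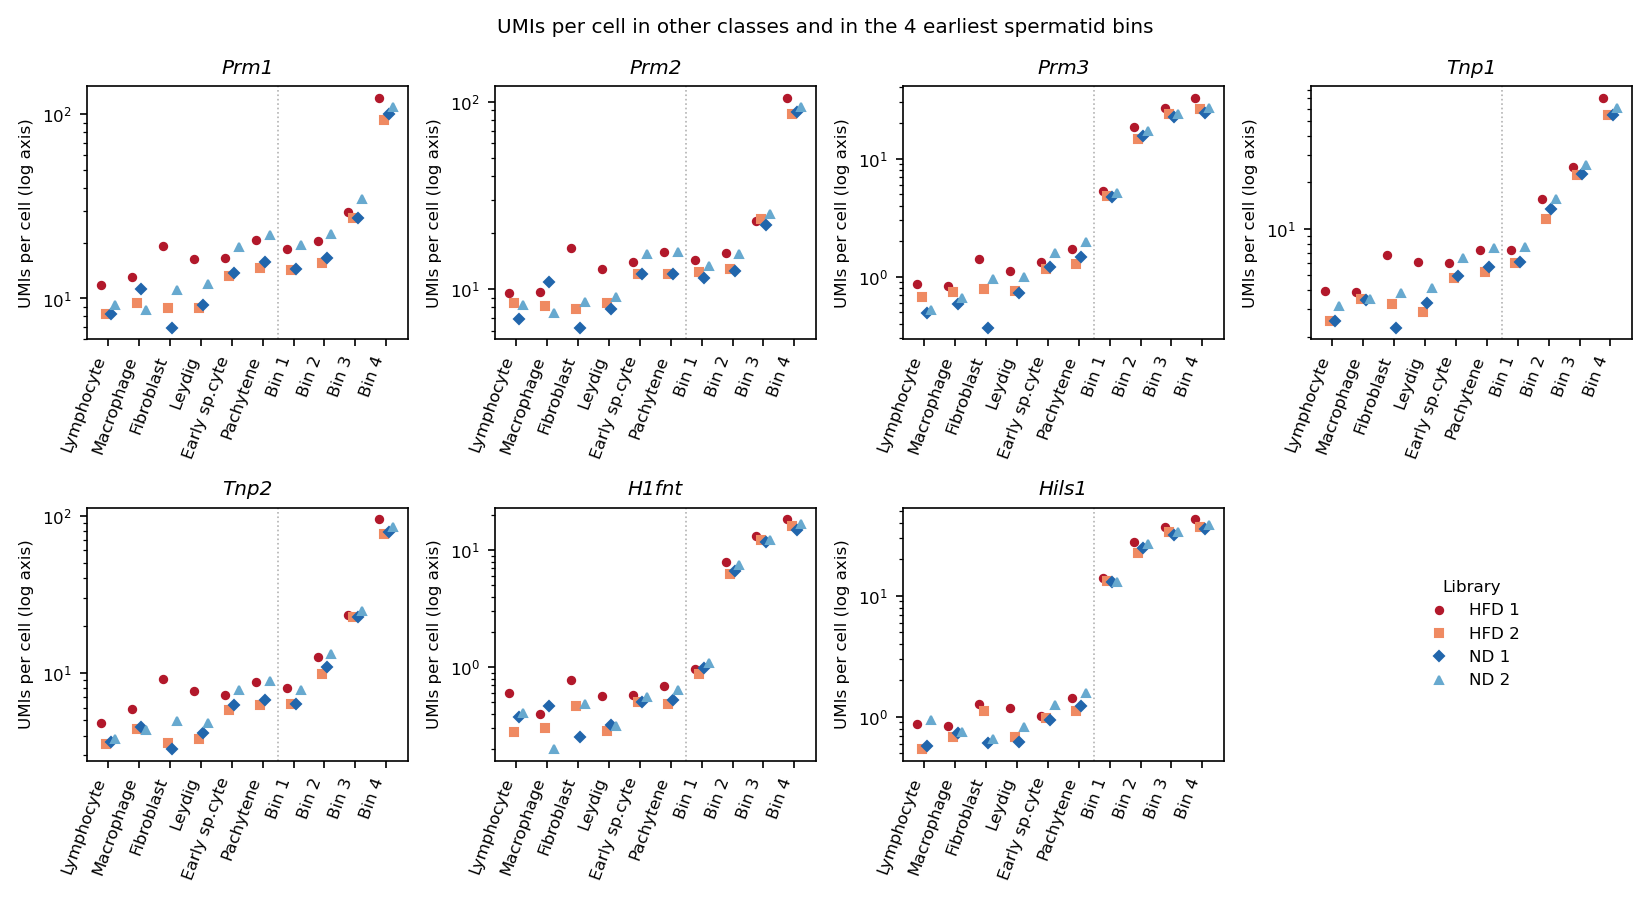
UMIs per cell (log axis) of each gene in 4 somatic-like and 2 spermatocyte-like classes, left of the dotted line, and in the 4 earliest spermatid bins, right of it, with 1 point per library. In bin 1 Hils1 stands 9.98 times above the pachytene-like cells while Prm1 stands at 0.914 times their level.

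Late in the index the 7 mRNAs did not disappear together, and Prm2 outlasted the rest. The 2 elongating-like clusters with the highest mean index were numbered 2 and 19. Cluster 2 held 1359 cells, and Prm2 made up 101390 ± 5631 CPM there against 7547 ± 325 CPM for Prm1. Per cell, it kept 325 UMIs of Prm2, 35.9 times the macrophage-like level, and each library was between 310 and 358. The transition protein genes were down at that level, with 3.29 UMIs of Tnp1 per cell against 3.59, and 6.16 of Tnp2 against 4.81. Hils1 stood at 0.837 against 0.752 UMIs per cell. Prm1 was 2.29 times the macrophage-like level, Prm3 was 4.68 times and H1fnt was 2.54 times.

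Cluster 19, with 912 cells and a mean index of 1.765, was later still by its markers and held 35.6 UMIs of the 7 genes per cell, against 29.8 in macrophage-like cells. Its elongating marker score of 0.6516 was close to the naming limit of 0.65, while the other elongating-like clusters scored 1.045 to 1.48. It had 9.45 UMIs of Prm1 per cell against 10.6 in macrophage-like cells, 3.17 of Tnp1 against 3.59, and 0.753 of Hils1 against 0.752. Prm2 stood at 15.2 UMIs per cell, 1.68 times the macrophage-like level, with a lowest library of 13.7 above the highest macrophage-like library of 10.98. H1fnt was at 0.586 UMIs per cell, 1.73 times that level, Tnp2 at 5.82, or 1.21 times, and Prm3 at 0.630, or 0.898 times. The 10 late genes of the index had 135 UMIs per cell in this cluster and 102 in cluster 2. The genes that led cluster 19 were Azin2, 5031439G07Rik, 1700012A03Rik, Neurl1a and Wbscr25, and those of cluster 2 were Car2, Spem2, Gm498, Bri3bp and 1700080E11Rik. Both clusters were shallow, with medians of 1996 and 2886 UMIs per cell, and depth was not tested as a part of these differences.

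Cell by cell, most cells were either rich in both protamine mRNAs or rich in Prm2 alone. Of 8653 elongating spermatid-like cells, 8208 had at least 20 UMIs of both genes together, a limit close to the 10.6 of Prm1 and 9.03 of Prm2 per macrophage-like cell. The share of Prm2 in that sum had a median of 41.8%, and 1627 cells (19.8%) were above 80%, a limit set after the values had been seen. Only 599 cells lay between 60% and 80%. Low Prm1 beside Prm2 above 80% follows from the split itself, with means of 31.1 UMIs of Prm1 and 338 of Prm2 there and 472 and 347 in the other cells. Tnp1 and Tnp2 were not used in the split, and had 3.29 against 164 and 6.22 against 248 UMIs per cell. The share of such cells was 19.0% and 20.4% in the HFD libraries and 20.4% and 19.4% in the ND libraries, and the diets overlapped. Their median depth was 2996 UMIs against 5822 for the others.

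Along the index, the ratio of Prm1 to Prm2 UMIs was 1.14 ± 0.0466 in bin 4 and 1.45 ± 0.0903 in bin 7, and then fell to 0.884 ± 0.0395 in bin 9 and 0.296 ± 0.0327 in bin 10 (SD, n = 4). HFD 2 had the lowest ratio of the 4 libraries in all 10 bins. Over all elongating spermatid-like cells the ratio was 1.09 ± 0.0717 in the HFD libraries and 1.13 ± 0.0382 in the ND libraries (SD, n = 2). The difference of the log2 ratios was -0.059, with a two-sided exact permutation p of 0.667, where 0.3333 is the smallest that 2 against 2 libraries can give. Without HFD 2 it was 0.0084.

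**Figure D3:**
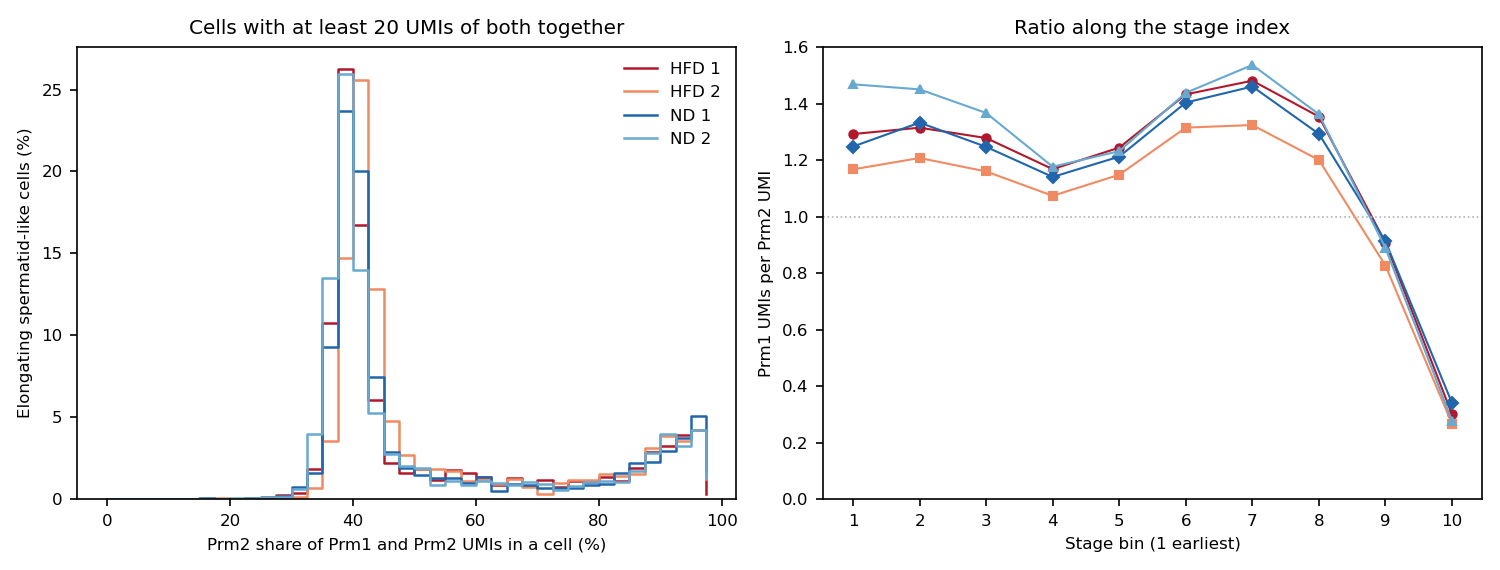
Left, share of Prm2 in the Prm1 and Prm2 UMIs of single elongating spermatid-like cells (steps of 2.5 percentage points) as percent of the cells of each library. Right, Prm1 UMIs per Prm2 UMI in each stage bin, with a dotted line at 1. Cells form a main peak around 40% and a lesser one above 80%, and the ratio in the bins falls from 1.45 in bin 7 to 0.296 in bin 10.

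The Sertoli-like class did not follow the other somatic classes. Sertoli cells nurse the spermatids, span the seminiferous epithelium and take up the cytoplasm that spermatids shed. Sertoli-like barcodes held 146 UMIs of Prm1 each, 13.7 times the macrophage-like level, and the 7 genes made up 8.13% ± 0.814 of their UMIs (SD, n = 4), against 0.982% ± 0.136 in macrophage-like cells. The 1242 barcodes were mixed. In 408 of them (32.9%) the 7 genes took more than 5% of the UMIs, a limit set after the values had been seen, with 58 barcodes between 4% and 6% and a highest value of 25.6%. No macrophage-like or lymphocyte-like barcode passed 5%, and 4 of 1334 Leydig-like barcodes did.

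The Sertoli marker list had 3169 CPM in the barcodes above the limit and 4846 CPM below it, so both sets carried it. Barcodes above the limit were deeper, with a median of 5292 UMIs against 2331.5. Scrublet had called 49 of 1291 Sertoli-like barcodes (3.796%) as doublets, against 5.62% of elongating spermatid-like ones, and these had been left out. Whether the remaining barcodes hold a spermatid or a part of one was not tested. The share above 5% was 33.5% and 35.9% in the HFD libraries and 29.5% and 33.2% in the ND libraries, a difference that reached only the smallest possible p of 0.333 (two-sided exact permutation test, n = 2 libraries per diet).

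**Figure D4:**
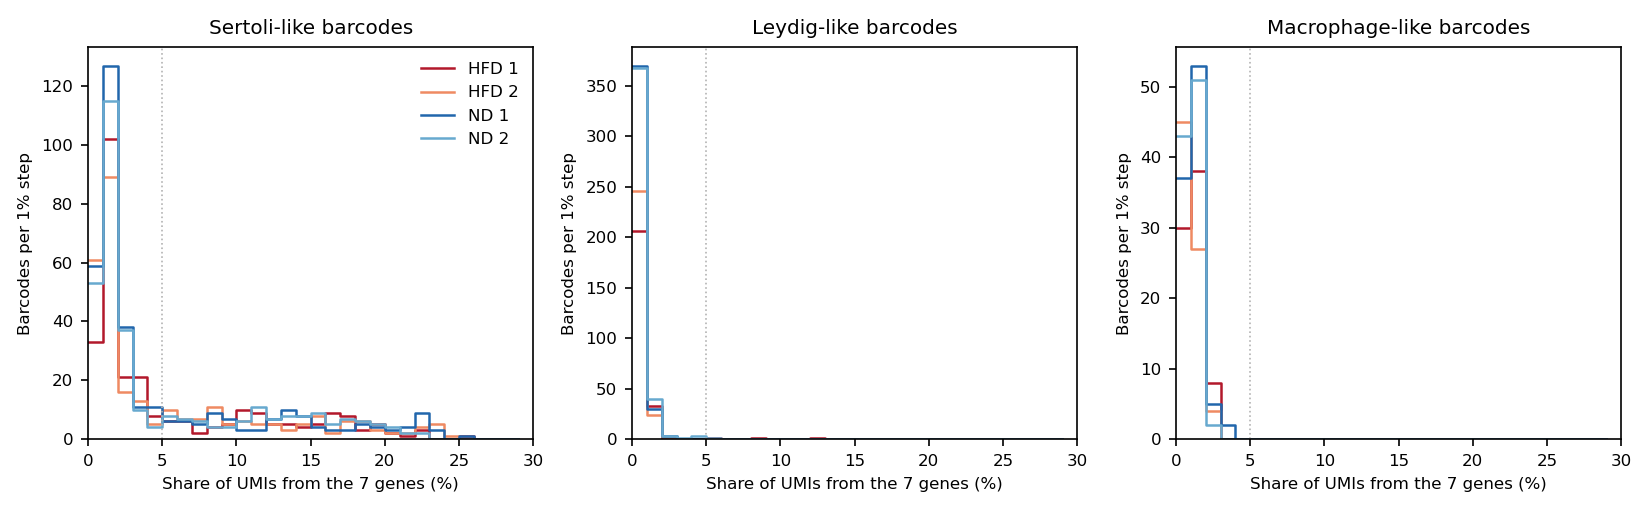
Number of barcodes per library in steps of 1 percentage point of the UMIs taken by the 7 genes, in Sertoli-like, Leydig-like and macrophage-like classes, with a dotted line at 5%. A tail up to 25.6% is seen in the Sertoli-like class, while the macrophage-like barcodes end below 5%.

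The diets were compared on UMIs summed per library. In the whole testis all 7 genes were lower in HFD, and the 2 HFD libraries lay below both ND libraries for each of them. Of all genes tested, 67.4% had diets without overlap and 35.9% lay lower in both HFD libraries. Prm1 stood at 8909 and 7695 CPM in the HFD libraries and 9993 and 9676 CPM in the ND libraries (CPM here scaled with TMM factors), a log2 ratio of HFD over ND of -0.24 ± 0.052 (SE) with an adjusted p of 0.00228 in edgeR's quasi-likelihood test. Hils1 had the largest of the 7 ratios, -0.36 ± 0.039 (adjusted p = 1.81e-05), with 830, 785, 1048 and 1028 CPM in the same order of libraries. The other ratios were -0.28 for H1fnt, -0.25 for Tnp2, -0.25 for Prm3, -0.24 for Tnp1 and -0.19 for Prm2. Their median was -0.25, against -0.020 for all genes tested, of which 34.3% were called at an adjusted p under 0.05 and 18.9% were called lower. Spermatid-like cells were 30.7% and 30.9% of the cells in HFD 1 and HFD 2 and 35.8% and 34.8% in ND 1 and ND 2. In such a sum, fewer cells of a type and less RNA per cell cannot be told apart. Without HFD 2 the count of called members was 4 of 7, where 19.4% of all genes were called. DESeq2 called 5 of 7, and 33.3% of the 19551 genes it gave an adjusted p. Prm1 and Tnp1 were both at -0.22 in DESeq2, with adjusted p values of 0.0798 and 0.0801.

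Within elongating spermatid-like cells all 7 ratios were below 0 and 6 of the 7 genes were called lower in HFD, where 8.77% of all genes tested were called and 4.72% were called lower. Hils1 again had the largest ratio. It stood at 1913 and 1835 CPM with HFD against 2270 and 2305 CPM with ND, a log2 ratio of -0.29 ± 0.037 (adjusted p = 3.66e-05, edgeR). Prm1 was at 57502 and 52382 CPM in the HFD libraries and 60822 and 62575 in the ND libraries, or -0.17 ± 0.033 (adjusted p = 0.00280). In both genes the diets did not overlap, nor did they in 51.9% of all genes tested, 24.9% with HFD lower.

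Prm2 changed least among those called, with 50456 and 50455 CPM against 54975 and 53928, a ratio of -0.11 ± 0.027 (adjusted p = 0.0136). Tnp1 (-0.15 ± 0.038), Tnp2 (-0.15 ± 0.031) and H1fnt (-0.16 ± 0.037) lay between, with adjusted p values of 0.0121, 0.00323 and 0.00768. Prm3 did not pass the test, at 2348 and 2208 CPM in HFD against 2377 and 2395 in ND (-0.067 ± 0.038, adjusted p = 0.2996). The median of the 7 ratios was -0.15, against 0.0081 for all genes.

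These calls depended on the scaling and on how the cells were taken. The TMM factors of this class were 1.01 and 1.03 in the HFD libraries and 0.981 and 0.973 in the ND libraries. Without TMM scaling, an alternative chosen after seeing the data, 3 of the 7 were called (Hils1, Tnp2 and Prm1), the median of all genes was 0.073, and 1.61% of genes were called lower. Tnp1 was then at -0.088 (adjusted p = 0.0629, edgeR) with overlapping diets, H1fnt at -0.097 (adjusted p = 0.0512) and Prm2 at -0.043 (adjusted p = 0.163). With doublets kept, 0 of the 7 and 1.83% of all genes were called, and the ratio of Hils1 was -0.23 (adjusted p = 0.0533, edgeR), while the share of barcodes called doublets was 3.11% in HFD 1 and 5.12% to 5.94% in the other libraries. With cells chosen by a marker gate only Hils1 (-0.19) and 3.23% of all genes were called. Without HFD 2 the counts were 4 of 7 and 1.77% of all genes, with Tnp1 and H1fnt no longer called. The UMIs per cell did not separate the diets. For Prm1 they were 415 and 323 in HFD 1 and HFD 2 and 350 and 375 in ND 1 and ND 2, while the median of all UMIs per elongating spermatid-like cell was 5410.5 in HFD 1 and 4224 to 4632.5 in the other libraries.

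In round spermatid-like cells 0 of the 7 genes passed the test in edgeR, and 0 in DESeq2, while 5 had an unadjusted p under 0.05. Of all genes 1.56% were called and 0.707% were called lower. The ratios ran from -0.097 for H1fnt to -0.046 for Prm3, with a median of -0.091 against 0.0041 for all genes. Prm1 stood at 7856 and 7618 CPM in HFD and 8323 and 8153 in ND (-0.091 ± 0.023, adjusted p = 0.0701). Prm2 was the only member whose diets overlapped, at 6293, 6598, 6845 and 6485 CPM, and without TMM scaling Prm3 overlapped too. Of all genes 46.7% did not overlap, 22.9% with HFD lower. Without ND 1 the count was 4 of 7, where 9.36% of all genes were called, and without ND 2 it was 6 of 7, where 4.28% were called.

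The difference of the diet ratio between the elongating and round classes was tested as an interaction, and 0 of the 7 genes passed, with 1 at an unadjusted p under 0.05 (edgeR). Hils1 had the largest difference, -0.17 ± 0.043 (adjusted p = 0.164), and Prm1 had -0.052 ± 0.044 (adjusted p = 0.773). Of all genes 0.00549% were called. The round and elongating sums of a library were treated as independent in this fit, so its p-values leave out that they share a library. By this test, a weaker diet ratio in round than in elongating spermatid-like cells is not shown for any of the 7.

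**Figure D5:**
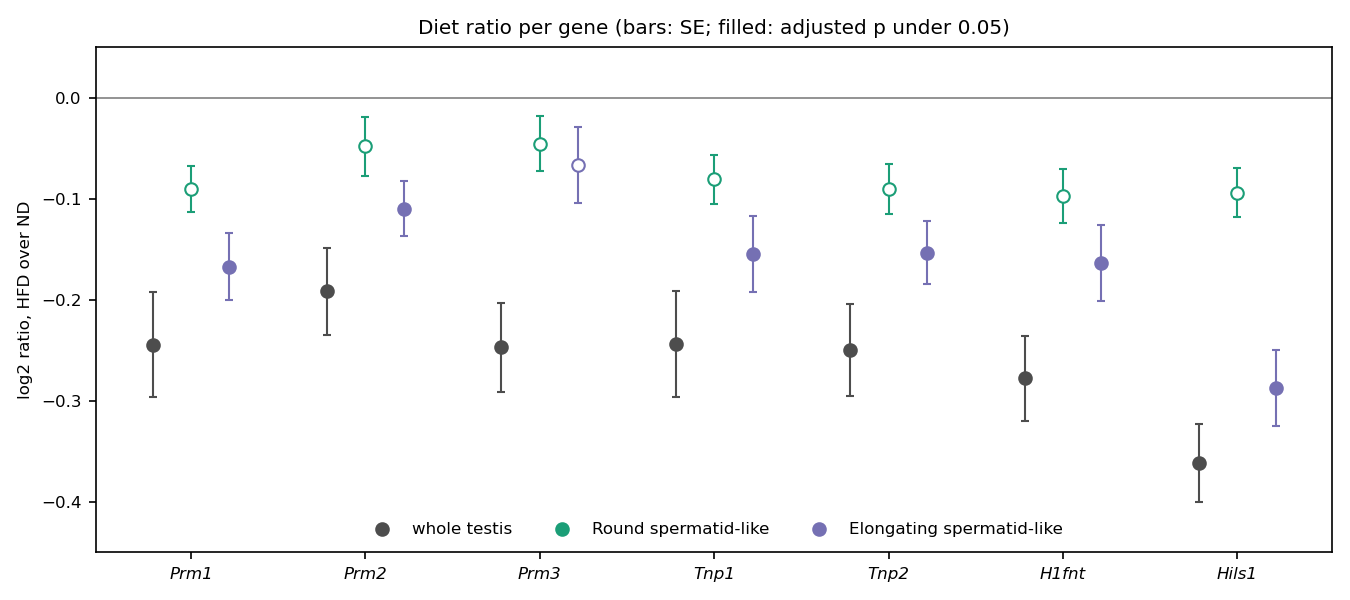
log2 ratio of HFD over ND for each gene in the whole testis, round spermatid-like and elongating spermatid-like cells, from edgeR with 2 libraries per diet. Bars are standard errors, filled points have an adjusted p under 0.05, and open points do not. All 21 points lie below 0, and Hils1 is lowest in the whole testis and in the elongating class.

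The diets were also compared within the bins of the stage index. Of 70 combinations of gene and bin, 12 were called, all lower in HFD, against 0.429% of all genes tested over the 10 bins and 0.17% called lower. Prm1 was called in 3 bins, Tnp1 in 3, Tnp2 in 3, and Prm2, H1fnt and Hils1 in 1 each, and Prm3 in none. The 70 ratios come from 7 genes in the same 4 libraries, so they are not 70 separate observations. In all, 68 of the 70 ratios were below 0, against 49.4% of the ratios of all genes over the bins. The 2 exceptions were Prm3 in bins 4 and 5, at 0.022 and 0.020. Without TMM scaling Prm3 was above 0 in bins 4, 5, 6 and 7, at 0.035, 0.038, 0.033 and 0.030. From bin 1 to bin 10, the share of all genes called was 0.167%, 0.632%, 0.299%, 0.0961%, 0.65%, 0.0509%, 1.33%, 0.551%, 0.127% and 0.577%. The share called lower was 0.0684%, 0.211%, 0.0823%, 0.0%, 0.234%, 0.00848%, 0.447%, 0.227%, 0.104% and 0.513%.

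Called combinations in the middle of the index were small. In bin 5, where Prm1 and Tnp2 climb, Prm1 stood at 22065 and 20402 CPM in HFD against 22903 and 22646 in ND (-0.10 ± 0.025, adjusted p = 0.0230, edgeR). The 2 largest called ratios were at the end, in bin 10. In bin 10 Prm1 was at 18243 and 15783 CPM in HFD and 25482 and 20798 in ND (-0.44 ± 0.083, adjusted p = 0.0144). Prm2 was at 60870 and 59299 against 75002 and 75228 CPM (-0.32 ± 0.072, adjusted p = 0.0388), and Tnp1 had a ratio of -0.39 (adjusted p = 0.0412). Per cell, the diets overlapped in all of these genes. Prm2 had 231 and 215 UMIs per cell in the HFD libraries and 229 and 215 in the ND libraries, Prm1 had 69.3 and 57.3 against 77.7 and 59.5, and Tnp1 had 18.7 and 14.4 against 20.2 and 14.4. The HFD cells of this bin were deeper, with medians of 3299.5 and 2952 UMIs against 2475 and 2499.5. They also stood further along the index, with means of 1.726 and 1.727 against 1.716 and 1.716. The late list of the index, in CPM not scaled with TMM factors, had 42566 and 40808 against 38304 and 39354. The TMM factors of this bin, used for the member CPM above, were 1.01 and 1.06 in HFD and 0.970 and 0.968 in ND. The 2 sets of CPM are therefore on different scales. The part of depth and of stage within the bin was not tested. The calls did not hold in every alternative. In bin 10, 0 of the 7 were called with doublets kept and 0 with the replicate number as a block, where 0 of all genes were called too, and the ratios of Prm1 were -0.39 and -0.44. Without ND 1 0 of the 7 and 5 of 8237 genes were called, with Prm1 at -0.29. DESeq2 called only Prm2, and 2.97% of the 1043 genes it gave an adjusted p. Without TMM scaling Prm1 (-0.35) and Prm2 (-0.23) were called and Tnp1 was not (adjusted p = 0.130, edgeR), where 6 of 7796 genes were called. In that bin cluster 19 made up 43.0% and 45.0% of the cells in HFD 1 and HFD 2 and 42.2% and 41.5% in ND 1 and ND 2, and its part in the ratios was not tested.

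In bins 2 and 3, Tnp1 and Tnp2 were called, with ratios between -0.23 and -0.18, and Prm1 was called in bin 3 (-0.28). H1fnt was called in bin 1 (-0.36, with 56.3 and 57.1 CPM in HFD against 71.4 and 74.3 in ND), and Hils1 in bin 8 (-0.30). The level of H1fnt in bin 1 was low, at a mean of 0.976 UMIs per cell, 1.67 times the pachytene-like level. Beside these early bins stand the diet ratios in cells outside the spermatid classes. In pachytene or later spermatocyte-like cells 5 of the 7 genes were called lower in HFD (background 5.39% of genes, 3.54% lower), with Prm1 at 735 and 664 CPM in HFD against 765 and 980 in ND (-0.32 ± 0.079, adjusted p = 0.0306). Counted per cell, Prm1 did not separate the diets in this class. It came to 20.8 UMIs (HFD 1), 14.7 (HFD 2), 15.7 (ND 1) and 22.0 (ND 2). Both HFD libraries were deeper here, with medians per cell of 29928.5 (HFD 1), 23493.5 (HFD 2), 18746 (ND 1) and 22693.5 (ND 2). The part of depth in these calls was not tested. With the marker gate 1 of 7 was called in pachytene or later spermatocyte-like cells, where 6.34% of genes were called, and with doublets kept 6 of 7, where 4.38% were. No cluster was named spermatogonia-like, but in cells the marker gate took as such all 7 were called lower in HFD. There 8.31% of genes were called and 5.11% were called lower. In early spermatocyte-like cells 6 were called lower (background 2.15%, 0.971% lower), and the diets overlapped in all of the 7 genes except 2, Prm3 and Hils1, while 42.4% of all genes did not overlap (21.4% with HFD lower). The count was 1 with doublets kept, 4 with the 10% mitochondrial limit and 0 with the marker gate, where 1.37%, 1.99% and 1.57% of genes were called. In Leydig-like, Sertoli-like, macrophage-like, lymphocyte-like and fibroblast or peritubular-like cells none was called, where edgeR called 4.43%, 0.00996%, 2.31%, 1.26% and 0.0% of genes (2.39%, 0.0%, 1.9%, 1.17% and 0.0% lower) and 0, 0, 1, 1 and 0 members had an unadjusted p under 0.05. The median ratio of the members was -0.17 in macrophage-like and -0.16 in lymphocyte-like cells, -0.11 in fibroblast or peritubular-like, -0.030 in Sertoli-like and 0.11 in Leydig-like cells. With the marker gate 4 of 7 were called lower in macrophage-like cells, where 4.44% of genes were called, and 5 of 7 in lymphocyte-like cells, where 4.04% were. The gate took 187 to 230 macrophage-like and 983 to 1208 lymphocyte-like cells per library, against 76 to 97 and 65 to 83 in the clusters. With doublets kept 1 was called in macrophage-like cells, where 1.56% of genes were. The part of free RNA in the early bins was not tested.

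The count of 12 changed with single libraries, and so did the share of all genes called over the bins. The count was 32 without HFD 1, where 1.37% of all genes were called, and 7 without HFD 2, where 0.204% were. It was 25 without ND 1 (1.35% of all genes) and 24 without ND 2 (0.473%).

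Genes that act on the same chromatin passage were taken from lists. In elongating spermatid-like cells, 15 of 16 genes of histone removal and protamine handling could be tested, and 3 were called lower and 0 higher in HFD, against 8.77% of all genes called and 4.72% called lower. They were Camk4 (-0.21 ± 0.063, adjusted p = 0.0328, edgeR), a kinase that phosphorylates Prm2 protein, Tssk6 (-0.13 ± 0.036, adjusted p = 0.0226), a spermatid kinase needed for chromatin condensation, and Hmgb4 (-0.12 ± 0.037, adjusted p = 0.0369), an HMG-box protein of spermatids. The list's median was -0.0036, against 0.0081 for all genes. Camk4 stood at 63.0 and 63.8 CPM in HFD and 73.2 and 73.8 in ND, without overlap. In 13 alternative analyses each, the call of Camk4 was lost in 9, that of Hmgb4 in 6 and that of Tssk6 in 5.

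Of the 14 genes of transcription and mRNA storage, 1 was called lower and 1 higher in the elongating class, against the same background. Fhl5, a testis coactivator of CREM, stood at 492 and 482 CPM in HFD against 567 and 576 in ND (-0.23 ± 0.042, adjusted p = 0.00136, edgeR). Tbpl1, a TBP-related factor of spermatids that is also among the spermatocyte markers used here, was higher, at 292 and 312 CPM against 247 and 266 (0.24 ± 0.050, adjusted p = 0.00477). The list's median was -0.014. The calls of Fhl5 and Tbpl1 were each lost in 2 of 13 alternatives. Of 7 testis histone variant genes, 4 could be tested in the elongating class and 0 were called. In round spermatid-like cells Camk4 (-0.18 ± 0.037, adjusted p = 0.0297) and the H3.3 gene H3f3b (-0.15 ± 0.032, adjusted p = 0.0429) were lower, calls lost in 5 and 4 of 13 alternatives, and 0 of the 14 genes of transcription and mRNA storage were called. Camk4 and H3f3b were the only calls among the 16 and 7 genes of their lists there, against 1.56% of all genes called and 0.707% called lower. The neighbours Socs1, next to the chromosome 16 cluster, and Sgca, around Hils1, had ratios of -0.41 (adjusted p = 0.415) and 0.25 (adjusted p = 0.219) in the elongating class, at levels of 1.53 to 3.06 and 10.9 to 13.9 CPM.

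The genes whose levels most resembled those of the members over 9 classes and 4 libraries (Pearson r of log2(CPM + 1) over 36 points that share libraries and depth) are named here. For Prm1 they were Tssk6 (r = 0.994), 1700027A15Rik (0.994) and Tppp2 (0.993), and for Prm2 Tssk6 (0.996), 1700027A15Rik (0.996) and Ttc24 (0.992). The gene 1700027A15Rik overlaps Tnp1 on the other strand, and the part of shared reads in its likeness was not tested. Tnp1 and Tnp2 were both most like Tfam (0.994 and 0.994). Prm3 was most like 1700003F12Rik (0.995), 1700092M07Rik (0.995) and Iqcf4 (0.994), and H1fnt most like 2810408A11Rik (0.994), Iqcf3 (0.993) and 1700009N14Rik (0.993). Hils1 was most like Akap3 (0.992), Irgc1 (0.991) and Ropn1 (0.991), where Ropn1 is one of the late genes of the index. Among the members themselves, Prm1 was most like Prm2 (0.997) and least like Hils1 (0.882).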

How the data were processed

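The values deposited by the authors are UMI counts without normalization, in 10x matrix layout (software version 3.0.2, per the file headers), and the genome build is mm10 per the submitters' processing notes. The aligner is not given in the sources used here, and the dense tables of the same counts were not used. Barcodes under 200 genes or over 20% mitochondrial UMIs were dropped (scanpy 1.11.5, Python 3.11.15), and Scrublet doublets (expected rate 0.1) were left out, 421 to 853 per library. Kept cells had a median of 5511 to 5946 UMIs per library. Cells of all libraries were clustered together without the 7 genes, using the 2000 most variable genes, a graph of 15 neighbours in 30 principal components and Leiden resolution 2 (igraph 0.11.9). A cluster was named from at least 3 markers and a marker score of at least 0.65. It also stayed unnamed where a marker of another class led it, or where it was shallow and no marker of its class was among its 10 leading genes. Clusters 4, 7 and 17 scored 0.6095, 0.6153 and 0.5155. Clusters 8, 9 and 11 had depths of 0.3116, 0.332 and 0.2761 relative to the library median. Cluster 15 was led by a marker of another class. Counts were summed per library and tested with edgeR 4.0.16 in R 4.3.3 (filterByExpr, TMM, quasi-likelihood test), with Benjamini-Hochberg adjustment over all genes of a compartment and a threshold of 0.05. Ratios are log2 of HFD over ND, with an SE taken as their absolute value over the square root of the F statistic. The script was tested on simulated counts. DESeq2, no filter, each library left out, a replicate block, doublets kept, a 10% mitochondrial limit, scaling without the members, a marker gate, 6 bins and an index from log values were the main alternatives, and no TMM scaling was added after seeing the data. From each gene list up to 3 genes per direction with an adjusted p under 0.05 in the round or elongating class were named, and up to 3 genes most like each member. The members, lists, markers and tests were chosen with earlier results of these data known.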

Additional observations from a re-analysis of the deposited data

How the results depend on the processing

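With 2 libraries per diet, only differences that are large against the spread between libraries can be called, and counts near the threshold moved. Leaving out 1 library gave 4 to 7 members called in the whole testis, 0 to 6 in round and 4 to 6 in elongating spermatid-like cells and 7 to 32 combinations of gene and stage bin, and the test between the classes called 0 members each time. With 1 library left out, the log2 difference of the Prm1 to Prm2 ratio ran from -0.126 to 0.0084. In elongating spermatid-like cells 0 members were called with doublets kept and 1 with the marker gate, against 6 as reported and 5 with DESeq2. The shares of genes called were 1.83%, 3.23%, 8.77% and 11.4% in the same order. The last is a share of the 4744 genes that DESeq2 gave an adjusted p, while the 8.77% is of 14554 genes. Without TMM scaling, chosen after seeing the data, 3 members were called there, and 7 in the whole testis, 0 in round spermatid-like cells and 14 combinations. In the same order, 9.05%, 34.9%, 1.88% and 0.811% of all genes were called. The 12 combinations, where 0.429% of all genes were called over the bins, became 6 with DESeq2 (0.0594%) and 30 with no filter (0.277%). They became 5 with doublets kept (0.360%), 21 with the index from log values (1.32%) and 18 of 42 with 6 bins (1.71%). The share of DESeq2 is of 144730 adjusted p values over the bins, and the 0.429% is of 113926. The cause of these shifts was not tested. With cluster 15, an unnamed cluster nearest round spermatids, joined to the class, the round ratio of Prm2 was 0.016 (adjusted p = 0.828, edgeR). That alternative was chosen after seeing the data. With the replicate number as a block, 1 member was called in round and 5 in elongating spermatid-like cells, and 17 combinations. The shares of all genes called were then 4.62%, 11.2% and 0.635%. The difference of replicate 1 minus 2 was correlated between the diets over the genes tested. This correlation was 0.0188 in the elongating class (14554 genes) and 0.0894 in the whole testis (25470 genes). With 2 libraries per diet it cannot show whether the replicate numbers mark a pairing. By CPM, the highest bin of Prm2 was 10, of Prm3 9 and of Tnp1 7 with the index from log values, and the other 4 members kept theirs. Leaving out somatic-like cells with no late-list UMI removed few cells, while leaving out those with any, chosen after seeing the data, left 3 to 13 cells per class.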

Other observations

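Cluster 15, unnamed and nearest to round spermatids, had 2883 cells and was left out of the round spermatid-like class and of the stage bins. It held Hils1 at 19.98 ± 1.03 UMIs per cell and Prm3 at 10.1 ± 0.661 (SD, n = 4 libraries), against 13.3 and 4.97 in stage bin 1. H1fnt stood at 2.59 ± 0.0910 UMIs per cell, between its values of 0.976 in bin 1 and 7.07 in bin 2. Prm1, at 16.7 ± 2.75, and Prm2, at 13.1 ± 1.42, were again at the level of pachytene or later spermatocyte-like cells (18.3 and 14.0).

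In Sertoli-like barcodes where the 7 genes took at most 5% of the UMIs, the 10 late genes of the index had 9052 CPM, against 1815 CPM in macrophage-like and 2364 CPM in lymphocyte-like barcodes. Prm1 in the same barcodes was at 5128 CPM, against 3487 and 4181 CPM. No test was made of this difference.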
